A study of Homo sapiens with 24 samples.

Results

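Long intergenic non-protein-coding RNA genes whose symbol is LINC followed only by digits are described here over all 8 groups of an RNA-seq series. A gene belonged to the set when it had at least 20 raw counts in at least 3 of the 24 libraries, so members were chosen by their measured counts in these libraries. Of 58735 Ensembl genes in each count table, 2257 carried such a symbol, 1067 of these had a count in any library and 163 met the floor. A floor of 10 counts would have given 242 members and a floor of 50 counts 83. Just inside the floor lay LINC00265, LINC00466 and LINC00868, each at 20 counts in the library that decided its place. Just outside lay LINC03068 and LINC02606 with 19 counts and LINC02979 with 18.

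HCT116 cells come from a human colorectal carcinoma, and an auxin-inducible degron (AID) is a tag that lets auxin trigger proteasomal destruction of the tagged protein. The series holds WT cells, cells with tagged DNMT1 (DNMT1-AID), cells with tagged UHRF1 (UHRF1-AID) and cells with both tags (UHRF1-AID/DNMT1-AID, called compound cells below), each before auxin (day 0) and after 4 days of auxin (day 4), with 3 libraries per group. All lines carry a doxycycline-inducible OsTIR1 gene, the ubiquitin ligase subunit that auxin binds. WT cells have no tagged protein and received the same treatment, which was doxycycline at 2 µg per mL with auxinole at 20 µM before auxin, and doxycycline with auxin at 500 µM for the 4 days. According to the methods of the study the tag was placed at the C-terminus of UHRF1 with mClover and at the N-terminus of DNMT1 with mRuby2, at the endogenous genes, and 3 independent clones were made per degron line, while the WT libraries come from the parental line. Line, clone and treatment history therefore cannot be told apart between a degron line and WT. The labels do not tie a library to a clone, so p-values measure the spread between these libraries.

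LINC genes are transcribed by RNA polymerase II like coding genes, and many of their transcripts are spliced and polyadenylated but have no long open reading frame. They are known for low levels and for expression that is restricted to few tissues, and most numbered LINC genes have no established function. UHRF1 recognises hemimethylated CG dinucleotides after replication and recruits DNMT1, which methylates the new strand, and methylation of CG-containing promoters is a known means of keeping tissue-restricted genes silent.

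The libraries held between 15824804 and 25073821 counts on genes. By the file headers, alignments of all 12 libraries from day 0 and of UHRF1-AID cells at day 4 came from 1 folder, and those of the other 9 libraries from another, where alone ERCC spike-in RNA was counted, so UHRF1-AID against WT at day 4 and day 4 against day 0 in the other lines cross the folders. Of 10 epithelial markers, EPCAM lay between 332.9 and 600.2 CPM (counts relative to library size, scaled by TMM over all libraries) and KRT8 between 1611 and 3245, while VIL1 did not exceed 0.417 CPM and CDX1 did not exceed 2.03. The 10 summed to between 7065 and 7257 CPM in WT libraries at day 4 and to between 5110 and 5803 in compound libraries, with KRT19 at a mean of 3424 and 2108 CPM and ELF3 at 45.9 and 29.8, while KRT20 had 4.37 and 21.9 and CDX2 21.3 and 52.7. The 10 markers of other cell types summed to between 3.38 and 9.14 CPM in WT libraries at day 4 and to between 18.9 and 22.1 in compound libraries, where COL1A1 made up most of the sum and INS was at 0, and their part in the results was not tested. WT replicate 3 and replicates 1 and 2 of DNMT1-AID stood apart at day 0. Across 15750 genes, Spearman's rho between exon length and the deviation from the mean over all libraries was -0.138 in the first and -0.15 and -0.12 in the others, against 0.038 to 0.248 in the other 9 day 0 libraries and -0.174 to 0.154 at day 4. Counts that rest on these 3 libraries are given with and without them, except in DNMT1-AID cells between the days. The tags act on proteins, so transcripts of the tagged genes do not check the degradation, and these ranged from 17.5 to 197.5 CPM for UHRF1 and from 9.24 to 195.5 CPM for DNMT1. At day 0 mean UHRF1 was 170.7 ± 24.6 CPM (SD) in UHRF1-AID and 151.0 ± 63.7 in compound cells, against 73.7 ± 20.5 in WT and 69.15 ± 33.5 in DNMT1-AID cells. Mean DNMT1 was 44.7 ± 25.4 in DNMT1-AID and 66.4 ± 22.0 in compound cells, against 142.7 ± 57.1 in WT and 181.7 ± 12.15 in UHRF1-AID cells. The cause was not tested.

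The promoter windows of 4 members that differed at day 4 are shown because UHRF1 and DNMT1 act at CG dinucleotides, which are in capitals. Each runs from 250 bases before to 50 bases after the RefSeq start, 5′ to 3′ on the strand of the gene, in build GRCh38.p14. LINC01615 (chr6:169162940-169163239, minus strand) and LINC01426 (chr21:34745575-34745874, plus strand) were higher in all 3 degron lines, LINC00200 (chr10:1159518-1159817, plus strand) was higher in UHRF1-AID and compound cells, and LINC02454 (chr12:65602619-65602918, plus strand) was lower in those same lines.
LINC01615: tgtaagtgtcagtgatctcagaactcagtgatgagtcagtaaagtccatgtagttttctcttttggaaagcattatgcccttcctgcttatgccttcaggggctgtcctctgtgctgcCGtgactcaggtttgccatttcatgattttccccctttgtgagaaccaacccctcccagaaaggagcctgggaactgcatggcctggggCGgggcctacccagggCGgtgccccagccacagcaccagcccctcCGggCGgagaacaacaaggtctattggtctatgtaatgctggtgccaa
LINC01426: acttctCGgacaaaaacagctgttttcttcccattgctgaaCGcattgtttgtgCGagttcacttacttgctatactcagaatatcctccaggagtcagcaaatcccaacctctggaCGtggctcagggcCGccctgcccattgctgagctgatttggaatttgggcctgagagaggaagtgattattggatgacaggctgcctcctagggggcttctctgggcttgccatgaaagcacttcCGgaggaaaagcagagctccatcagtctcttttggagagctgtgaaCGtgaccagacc
LINC00200: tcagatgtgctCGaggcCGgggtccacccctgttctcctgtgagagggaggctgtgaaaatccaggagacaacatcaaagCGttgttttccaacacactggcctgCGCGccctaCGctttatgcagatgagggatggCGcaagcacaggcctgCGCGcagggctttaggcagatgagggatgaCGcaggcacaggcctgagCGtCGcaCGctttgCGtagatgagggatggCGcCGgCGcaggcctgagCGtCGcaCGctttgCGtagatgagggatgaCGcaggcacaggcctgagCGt
LINC02454: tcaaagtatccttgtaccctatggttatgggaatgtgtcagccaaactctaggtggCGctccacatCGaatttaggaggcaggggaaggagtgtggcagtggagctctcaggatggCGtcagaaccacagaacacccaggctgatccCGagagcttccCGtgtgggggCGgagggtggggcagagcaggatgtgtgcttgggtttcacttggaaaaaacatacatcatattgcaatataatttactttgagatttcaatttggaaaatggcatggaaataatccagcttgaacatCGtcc

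The window of LINC00200 held 23 CG, with an observed over expected ratio of 0.832, and CG recurred there throughout its length. The other windows were sparse. LINC01615 held 5 CG with a ratio of 0.229, LINC01426 held 7 with 0.354 and LINC02454 held 7 with 0.409. A RefSeq window was matched by symbol for 110 members. Their median ratio was 0.578, beside 0.579 over all 35116 windows of the table, and 48.2% of them exceeded 0.6, beside 48.9% of all windows. At least 1 CG occurs in 96.0% of all windows. Among the members called higher at day 4 in any degron line (below), 12 had a window, with a median ratio of 0.375, and 4 exceeded 0.6. The other 98 windows had a median of 0.606, and 49 exceeded 0.6. These are descriptions of letters in a fixed window, with no test. RefSeq starts can lie far from those of the count tables. They were 169309 bases apart for LINC00540 and 4297 for LINC02086, whose windows are not shown.

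GENCODE release 44 gives 153 members the biotype lncRNA and 10 a transcribed pseudogene biotype. They lay on 23 chromosomes, with 3 on the X chromosome, and had summed exon lengths from 353 to 27605 bases with a median of 2279. Exons of 45 members overlapped exons of another gene, for 15 on the same strand and for 37 on the opposite strand, and their counts are uncertain because the study does not state whether counting used strand. The nearest protein-coding gene was at a median distance of 16624 bases. It was within 10 kb for 64 members and over 100 kb away for 30. The start sites of 10 members lay head to head within 1 kb of a coding start, as for LINC02356, 161 bases from PHETA1.

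Levels were low. The median of a member over the 24 libraries ranged from 0 to 36.2 CPM, with a median of 1.36 over the members, while over the 14089 genes that met the same floor it was 20.0 CPM. Medians were under 1 CPM for 60 members and over 10 CPM for 12, and the 5 members with the highest medians made up 29.0% of the sum of medians. The floor was met in all 24 libraries by 46 members, and 105 met it in at least 3 WT libraries. It was met only with the help of day 4 libraries of degron lines by 21 members. Day 0 libraries were needed by 42 members and day 4 libraries by 24.

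Per kilobase of exon, the highest level belonged to LINC03057 (chr17:48635923-48647023, minus strand), which overlaps LINC02086 on the other strand and lies 2351 bases from the homeobox gene HOXB7. Its median was 14.4 CPM per kilobase. LINC01315, LINC00674, LINC01234 and LINC00857 followed with 10.0, 8.87, 8.02 and 6.87 CPM per kilobase. Total CPM of LINC03057 lay between 19.3 and 24.8 at day 0 and between 20.8 and 29.9 at day 4, and it was called in none of the 12 comparisons. LINC01234, a long gene known for high levels in several carcinomas, was at 30.4 to 40.0 CPM at day 0 and 31.1 to 42.6 CPM at day 4, and was called in none either. These levels mark the upper end of LINC expression in the series.

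The summed CPM of all members had its highest group median in WT at day 0, where libraries lay at 607.8, 644.8 and 654.5. At day 4 the WT libraries had 506.0, 547.3 and 576.5, and no WT library overlapped between the days. UHRF1-AID libraries lay between 583.4 and 635.8 at day 0 and between 537.7 and 563.6 at day 4. DNMT1-AID libraries lay between 571.6 and 679.3 and then between 502.1 and 548.1. Compound cells went the other way, from 591.4 to 596.2 at day 0 to 611.2 to 628.6 and 645.4 at day 4. The sum is a description, since the floor used these counts. Members with at least 20 counts in all 3 libraries numbered 87 in WT, 99 in the UHRF1-AID line, 91 in the DNMT1-AID line and 102 in compound cells at day 0, and 70, 78, 70 and 89 at day 4, where libraries were also shallower.

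Each degron line was compared with WT at day 4 to ask which members differ once the tagged protein has been degraded. Calls required a log2 fold change beyond 1 in either direction with an adjusted p below 0.05, in edgeR fits over all genes that passed a filter on low counts. In UHRF1-AID cells 138 members were tested, 13 were called higher and 5 lower. Of all genes tested there, 5.77% passed as higher and 1.22% as lower. In DNMT1-AID cells 128 members were tested, of which 7 were higher and 1 lower, beside 2.29% and 0.28% of all genes. In compound cells 138 were tested, of which 25 were higher and 9 lower, beside 9.21% and 2.49% of all genes. Nothing is read from shares above these backgrounds, because a member that met the floor only through the group where it is high had to differ. The 3 comparisons share the WT libraries. Median log2 fold changes of the tested members were -0.20, -0.05 and 0.07, beside 0.03, 0.00 and 0.02 over all genes tested.

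All 13 members higher in UHRF1-AID cells and all 7 higher in DNMT1-AID cells were among the 25 of compound cells. The same overlap over all genes was not counted and the comparisons share the WT libraries, so nothing is read from it. Of these 25, 4 were higher in all 3 lines, 9 passed in compound cells and in neither single line, where 4 of them were not tested, and 16 met the count floor only through day 4 libraries of degron lines. Exons of 5 of the 25 overlapped another gene. At most 3 counts were seen in any of the 6 WT libraries for 9 of the 25, and in any of the 12 day 0 libraries for 7. Mean CPM of the 25 had a median of 0.266 in WT, 1.17 in the UHRF1-AID line, 0.795 in the DNMT1-AID line and 2.51 in compound cells at day 4, and 22 of them had their highest mean in the compound line. In bulk RNA, strong expression in a few cells and weak expression in many cannot be told apart. In all, 12 members were lower in any line, none of them in all 3, and all 12 met the floor in WT. Exons of 6 of these 12 overlapped another gene. No member was called in opposite directions.

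LINC01615 (ENSG00000223485, chr6:169158092-169162924, minus strand) was at 0.255, 0.361 and 0.180 CPM in WT at day 4. UHRF1-AID libraries had 4.34, 2.80 and 2.32 CPM, DNMT1-AID libraries 2.29, 1.69 and 1.88, and compound libraries 3.01, 2.66 and 3.34. All 9 degron libraries were above all WT libraries, while at day 0 the highest value was 0.404 CPM. The log2 fold changes against WT were 3.52 (standard error, SE, 0.43, adjusted p = 0.000822), 2.85 (0.44, adjusted p = 0.000959) and 3.48 (0.41, adjusted p = 1.33e-06). Its nearest coding gene is THBS2, which encodes the matrix protein thrombospondin 2 and lies 52856 bases away on the same strand. THBS2 was also called higher in all 3 lines, with log2 fold changes of 4.13, 2.24 and 3.46. Its level in WT at day 4 was low, at a mean of 0.224 ± 0.242 CPM (SD). The call in DNMT1-AID cells had an adjusted p of 0.0472 by edgeR. Between the days THBS2 was called higher in UHRF1-AID and compound cells. In DNMT1-AID cells it was not, with a log2 fold change of 0.51 (adjusted p = 0.333 by edgeR).

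LINC00958 (ENSG00000251381, chr11:12961842-12989548, minus strand) had 0 counts in every WT library at day 4. UHRF1-AID libraries had 123, 135 and 135 counts, DNMT1-AID libraries 21, 25 and 10, and compound libraries 167, 170 and 138. Against a floor of 3 counts per WT library it was at least 35.1-fold higher in the UHRF1-AID line, at least 6.14-fold higher in the DNMT1-AID line and at least 53.0-fold higher in compound cells, with adjusted p of 8.21e-05, 0.00125 and 4.32e-11 from edgeR. The compound line had 7, 2 and 23 counts before auxin, whereas the other 9 day 0 libraries had at most 2. TEAD1, a transcription factor of the Hippo pathway 17359 bases away, was not called in any of the 3 comparisons and had log2 fold changes of 0.07, -0.18 and -0.56.

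LINC01694 and LINC01426 (ENSG00000233922, chr21:45593654-45603056, and ENSG00000234380, chr21:34745757-34784886, both plus strand) were expressed in WT cells and met the floor there. LINC01694 was at 1.40, 1.93 and 1.86 CPM in WT at day 4. It was at 5.51, 5.29 and 6.40 CPM in the UHRF1-AID line, 4.81, 4.59 and 4.61 in the DNMT1-AID line and 10.5, 11.7 and 12.0 in compound cells, so that the 4 groups did not overlap. Its log2 fold changes were 1.71, 1.43 and 2.73, with standard errors of 0.25, 0.26 and 0.22 and adjusted p of 0.00189, 0.00279 and 3.47e-09 by edgeR. LINC01426 was at 1.47, 1.02 and 1.44 CPM in WT, 3.07, 4.39 and 4.64 in the UHRF1-AID line, 3.52, 2.6 and 4.22 in the DNMT1-AID line and 7.18, 5.95 and 4.65 in compound cells. WT libraries were below all others, and the single lines overlapped each other. Log2 fold changes were 1.61, 1.39 and 2.19 (adjusted p = 0.00609, 0.013 and 2.57e-06 by edgeR), and the call in DNMT1-AID cells was lost without DNMT1-AID replicate 3 and without WT replicate 2. LINC01426 lies 2915 bases from RUNX1, a transcription factor of blood cell formation, which was not called against WT at day 4 in any of the 3 lines and was lower at day 4 than at day 0 in UHRF1-AID cells, with -1.59 on the log2 scale (adjusted p = 0.000599 by edgeR). Of 6 members on chromosome 21, 5 were among the 25 higher members, a count noticed after the values were seen. LINC00649 and LINC02575 among them met the floor only through day 4 libraries of degron lines. The share of all chromosome 21 genes called higher was not counted, so nothing is read from this count.

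Higher in UHRF1-AID and in compound cells, and not called in DNMT1-AID cells, were LINC02574, LINC01116, LINC01980, LINC00200, LINC02972, LINC00540, LINC00649, LINC02575 and LINC00205. Apart from LINC00205, these did not pass the count filter in DNMT1-AID cells against WT and were not tested there. LINC00200 (ENSG00000229205, chr10:1159768-1164789, plus strand) had 0 counts in all 12 day 0 libraries and in all WT libraries at day 4. It had 33, 72 and 49 counts in the UHRF1-AID line, 1, 1 and 0 in the DNMT1-AID line and 128, 158 and 128 in compound libraries at day 4. It was at least 13.9-fold higher than in WT in UHRF1-AID and at least 46.2-fold higher in compound cells, with adjusted p of 0.0014 and 1.16e-10 by edgeR. ADARB2, a brain-expressed RNA-editing family member 12529 bases away, was at 0 CPM in the 4 groups at day 4.

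LINC00540 (ENSG00000276476, chr13:22040975-22276524, plus strand) had 1, 2 and 1 counts in WT at day 4, 46, 77 and 58 in the UHRF1-AID line, 9, 6 and 8 in the DNMT1-AID line and 135, 112 and 141 in compound libraries. The ratio to WT was 36.3 (counting interval 13.9 to 134.7) in UHRF1-AID, 5.74 (1.96 to 22.8) in DNMT1-AID and 97.1 (37.6 to 358.3) in compound cells, where the interval covers counting error only. The first and last were called by edgeR with adjusted p of 0.000266 and 3.72e-11. FGF9, which encodes a fibroblast growth factor and is 336477 bases away, moved the other way. Its log2 fold change was -1.66 in compound and -2.15 in DNMT1-AID cells, both called, and -0.49 in UHRF1-AID cells.

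LINC02972 (ENSG00000249790, chr12:8788257-8795789, plus strand) had 2, 0 and 3 counts in WT and 0, 1 and 4 in DNMT1-AID libraries at day 4, but 48, 68 and 50 in UHRF1-AID and 98, 77 and 86 in compound libraries. The groups split into WT with DNMT1-AID and UHRF1-AID with the compound line, with no overlap between these pairs. The log2 fold change to WT was 4.65 (SE 0.59, adjusted p = 0.000979 by edgeR) in UHRF1-AID and 5.62 (0.46, adjusted p = 5.94e-09) in compound cells. LINC01980 (ENSG00000225548, chr3:27797563-27931579, plus strand), 74852 bases from the T-box gene EOMES, showed the same order at lower counts. It had 0, 0 and 2 counts in WT, 20, 34 and 18 in the UHRF1-AID line, 2, 0 and 1 in the DNMT1-AID line and 51, 58 and 45 in compound libraries. The ratio of the compound line to WT was 77.1 (counting interval 21.0 to 642.4). Exons of LINC01980 overlap those of LINC01967 on the other strand.

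UHRF1-AID and DNMT1-AID cells at day 4 were also compared directly, across the folders. Of 134 members tested, 6 were higher in UHRF1-AID cells and 2 lower, beside 2.88% and 2.43% of all genes. The 6 were LINC00200, LINC00958, LINC02972, LINC00540, LINC01980 and LINC02575. LINC00958 was higher by 2.46 on the log2 scale (SE 0.31, adjusted p = 0.00238 by edgeR) and LINC02972 one of 4.61 (0.64, adjusted p = 0.00335). LINC00200 had a ratio of 61.9 (counting interval 16.8 to 515.3) and an adjusted p of 0.00215 by edgeR. Both lower members are described with the day effects below. LINC01615, LINC01694 and LINC01426, which were higher in both lines, had log2 differences of 0.64, 0.25 and 0.19 between them with standard errors of 0.31, 0.20 and 0.28, and were not called.

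In DNMT1-AID and compound cells, and not in UHRF1-AID cells, LINC02525, LINC02976 and LINC01405 were called higher. Of the 3, LINC01405 alone was tested in UHRF1-AID cells. LINC02976 had 0.780, 0.529 and 0.788 CPM in that line, above its 0.255, 0.181 and 0.481 in WT. LINC01405 (ENSG00000185847, chr12:110936585-110958208, plus strand), 15863 bases from the myosin gene MYL2, was at 0.893, 1.08 and 0.481 CPM in WT, 1.88, 3.56 and 2.47 in DNMT1-AID and 3.07, 3.10 and 4.59 in compound libraries. UHRF1-AID libraries had 0.536, 2.38 and 0.603 CPM, which overlap WT. The log2 fold changes were 1.68 (adjusted p = 0.0157) in DNMT1-AID and 2.14 (adjusted p = 5.31e-05 by edgeR) in the compound line. Before auxin its level was already uneven, at 1.41, 1.59 and 1.58 CPM in WT, 5.98, 2.02 and 3.58 in DNMT1-AID and 2.93, 4.53 and 10.6 in compound libraries, and day 4 against day 0 was called in no line. The call in DNMT1-AID cells was lost in 4 of 11 alternative settings, among them leaving out DNMT1-AID replicate 2, WT replicate 1 or WT replicate 2.

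Called in compound cells and in neither single line were LINC01160, LINC01124, LINC01060, LINC02982, LINC00680, LINC01503, LINC02882, LINC00431 and LINC00868. Of these 9, 4 were tested in both single lines, LINC02882 in the UHRF1-AID line alone, and LINC01160, LINC01060, LINC00431 and LINC00868 in neither, so for these 4 the absence of a call says nothing of the single lines. Differences of the compound line from the single lines were not tested. LINC00868, 6620 bases from the glycosyltransferase gene MGAT5B and just inside the count floor, had 0 counts in WT, 5, 19 and 13 in the UHRF1-AID line, 0, 0 and 1 in the DNMT1-AID line and 55, 20 and 23 in compound libraries at day 4, at least 10.9-fold higher than WT in the last and at least 3.35-fold higher in the UHRF1-AID line. LINC01060 had 1 count in the WT libraries together and 122 in the compound line, a ratio of 122.2 with a counting interval of 21.5 to 4864. With 32 counts in the UHRF1-AID line its ratio to WT was 25.7 there (4.29 to 1045). LINC01160 had 2 and 139, a ratio of 69.6 (18.9 to 580.3), and with 63 counts in the UHRF1-AID line a ratio of 25.3 (6.71 to 213.2). The other 6 were less far apart, with log2 fold changes from 1.29 in LINC02982 to 2.24 in LINC02882, and the call of LINC01503 (1.36) was lost in 5 of 11 settings, DESeq2 among them.

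Coding genes beside the higher members were counted as well. In compound cells 19 of their nearest coding genes were tested, of which 6 were called higher and 1 lower. Among 86 coding genes beside the other tested members, 4 were higher and 1 lower, and of all genes 9.21% were higher and 2.49% lower. No test of the difference was made. The 6 were THBS2, the transcription factor gene SP5, 784 bases from LINC01124, the interferon-stimulated gene IFI6, 3339 bases from LINC02574, RIMKLB beside LINC02972, PCBP3 beside LINC01694 and MGAT5B beside LINC00868. Their log2 fold changes lay between 1.07 for MGAT5B and 3.46 for THBS2, with 1.67 for IFI6 and 2.37 for SP5. Between the days in compound cells, THBS2 and RIMKLB were called higher. PCBP3 and MGAT5B were not, with log2 fold changes of -0.14 and 0.76, and for SP5 and IFI6 no such value is given. Whether reads that run past a gene end add to these counts was not tested.

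The members lower at day 4 had moderate counts in WT. LINC02454 (ENSG00000256268, chr12:65602869-65612997, plus strand) was at 7.27, 5.24 and 6.79 CPM in WT, 3.36, 2.22 and 1.90 in the UHRF1-AID line, 3.99, 4.41 and 3.25 in the DNMT1-AID line and 1.47, 2.15 and 1.25 in compound libraries at day 4. All degron libraries were below WT. The log2 fold changes were -1.38 (SE 0.28, adjusted p = 0.00912), -0.72 (0.22, adjusted p = 0.0594) and -1.97 (0.26, adjusted p = 5.99e-06) by edgeR, so that DNMT1-AID cells missed the threshold. In the compound line it was lower before auxin too, at 2.93, 3.15 and 2.61 CPM against 6.24, 9.78 and 7.32 in WT, a log2 fold change of -1.44 (adjusted p = 0.0171). MSRB3, a methionine sulfoxide reductase gene 111439 bases away, had log2 fold changes of 1.11, 0.01 and 0.96, of which the first was called.

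LINC00630 on the X chromosome (chrX:102769161-102885406, plus strand) was at 3.19, 1.75 and 1.86 CPM in WT at day 4, 0.975, 0.793 and 0.742 in the UHRF1-AID line, 0.880, 1.27 and 1.49 in the DNMT1-AID line and 0.614, 0.443 and 0.894 in compound libraries. Its exons overlap those of ENSG00000239407 on the same strand. It was called lower in UHRF1-AID cells with a log2 fold change of -1.44 (adjusted p = 0.0233) and in compound cells with -1.76 (adjusted p = 0.00164 by edgeR), and in the latter it was also lower at day 0 with -1.24 (adjusted p = 0.0476). The call in UHRF1-AID cells was lost without UHRF1-AID replicate 3 and without WT replicate 1, and that at day 0 in 6 of 12 alternative settings, the replicate block among them. LINC00513 had 9.44, 8.01 and 9.92 CPM in WT, 4.24, 5.87 and 2.83 in UHRF1-AID and 2.70, 3.48 and 7.21 in compound libraries, with log2 fold changes of -1.09 and -1.01. Every WT library was above those of both lines, which overlapped each other. The second call lay at the fold threshold and was lost in 8 of 12 alternative settings and the first in 4 of 12, among them leaving out any 1 of the WT libraries.

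LINC02086 and LINC03061 were lower in UHRF1-AID cells alone among the 3 comparisons. LINC02086, 13351 bases from HOXB7 and with exons that overlap LINC03057 on the other strand, was at 3.32, 3.91 and 2.89 CPM in WT and 1.66, 1.22 and 1.30 in UHRF1-AID libraries, a log2 fold change of -1.28 (SE 0.28, adjusted p = 0.0124 by edgeR), while LINC03057 had one of -0.14. In LINC02086 the log2 fold change was -0.82 in DNMT1-AID and -0.70 in compound cells. Its call was lost without UHRF1-AID replicate 3 and without WT replicate 2. LINC03011 was the only member called lower in DNMT1-AID cells, at 0.822, 1.39 and 1.10 CPM against 2.68, 2.71 and 2.23 in WT, a log2 fold change of -1.19 (SE 0.33, adjusted p = 0.0392 by edgeR). That call was lost with DESeq2 and in 5 of the other 11 settings.

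In compound cells LINC01270, LINC01833, LINC00973, LINC01338, LINC01106 and LINC01011 were also lower. LINC01270 (chr20:50292720-50314922, plus strand), 100031 bases from the transcription factor gene CEBPB, was at 2.62, 4.39 and 2.83 CPM in WT and 1.17, 1.01 and 1.01 in the compound line, with a log2 fold change of -1.60 (SE 0.32, adjusted p = 0.00052 by edgeR). LINC00973 was at 3.06, 3.37 and 2.77 CPM against 0.737, 1.71 and 1.13, a log2 fold change of -1.34 (0.33, adjusted p = 0.00296). LINC01833, 2699 bases from the homeobox gene SIX3, was at 4.97, 4.15 and 5.71 CPM against 2.64, 2.15 and 2.09, a log2 fold change of -1.09 (0.25, adjusted p = 0.00156). SIX3 itself was called higher there, with a log2 fold change of 1.19. In each of the 3 members the groups did not overlap. In UHRF1-AID cells their log2 fold changes were -1.17, -0.88 and -0.80 and did not pass. The calls of LINC01833 and LINC01338 were each lost without 1 WT library, replicate 3 and replicate 1. Exons of LINC01270, LINC01833 and LINC01106 overlap exons of other genes on the other strand. Those of LINC01011 overlap NQO2 on the same strand and NQO2-AS1 on the other.

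Before auxin few members differed. In UHRF1-AID cells 145 members were tested and 0 were called in either direction, beside 0% of all genes higher and 0% lower, while 6 members had an unadjusted p under 0.05 and DESeq2 also called 0. In DNMT1-AID cells 141 were tested and 0 called, beside 0% higher and 0.00723% lower of all genes, with 9 members at an unadjusted p under 0.05 and 0 called by DESeq2. With the 3 libraries that stood apart left out, 9 members were called in DNMT1-AID cells, as were 97 genes of all kinds higher and 168 lower of 14446 tested, where a single DNMT1-AID library then remained and was assumed to vary like the WT libraries. In compound cells 145 were tested, 1 was higher and 4 lower, beside 0.656% and 0.656% of all genes. The higher one was LINC02616, at 1.53, 1.34 and 1.74 CPM against 0.488, 0.461 and 0.732 in WT, with a fold change of 1.44 on the log2 scale (adjusted p = 0.0449 by edgeR) that was lost in 7 of 11 alternative settings. Among the lower ones, LINC03040 was at 10.0, 9.97 and 8.35 CPM against 25.3, 22.5 and 22.6, a log2 fold change of -1.33 (SE 0.14, adjusted p = 0.00647 by edgeR), and it stayed called in all 12 alternative settings. Its exons overlap those of SCIRT. LINC00239, LINC02454 and LINC00630 were the other lower members. The count of 5 fell to 1 without replicate 2 or 3 of the compound line or WT replicate 2, fell to 2 without compound replicate 1, WT replicate 1 or with the replicate block, and rose to 7 without WT replicate 3.

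Day 4 was compared with day 0 within each line, which also takes in doxycycline, auxin and time in culture. In WT cells 138 members were tested, of which 5 were higher and 20 lower, beside 5.37% and 6.53% of all genes. In UHRF1-AID cells 154 were tested, with 18 higher and 35 lower, beside 12.1% and 9.82%. In DNMT1-AID cells 138 were tested, with 14 higher and 21 lower, beside 8.62% and 6.68%. In compound cells 155 were tested, with 35 higher and 28 lower, beside 15.1% and 11.5%. The UHRF1-AID comparison lies within 1 folder. Without the library that stood apart, the WT count rose from 25 to 32. Of all genes in WT, 730 were higher and 888 lower of 13601 tested with it, and 850 and 1268 of 13865 without it. For DNMT1-AID cells no such count is given, because a single day 0 library remained. Median log2 fold changes of the members were -0.16, -0.16, -0.22 and 0.04.

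Of the 13 members higher against WT in UHRF1-AID cells, 12 were also higher at day 4 than at day 0 within that line, in a comparison that does not cross the folders. Both comparisons use the UHRF1-AID libraries of day 4, and of the 805 genes of all kinds higher against WT in that line 80.6% were also higher than at day 0, so nothing is read from the members' count. In DNMT1-AID cells 4 of 7 were, and in compound cells 19 of 25. The share of all genes was not counted for the DNMT1-AID and compound lines, so nothing is read from these counts either. Some of the 25 had a lower mean at day 4 than at day 0 in compound cells, and WT fell too. LINC01503 went from 4.80 to 1.41 CPM in compound cells and from 2.99 to 0.551 in WT. LINC00431 went from 1.89 to 1.38 and from 1.37 to 0.532. In WT cells 9 of the 25 were tested between the days and 0 were called higher. LINC02574, not tested there, had 0 counts in each WT library at day 0 and 3, 5 and 6 at day 4. LINC00540 in UHRF1-AID cells had 1, 0 and 0 counts at day 0 against 46, 77 and 58 at day 4, and LINC01615 had 0, 0 and 1 against 89, 53 and 50. Of the lower members, 1 of 5 in UHRF1-AID, 1 of 1 in DNMT1-AID and 4 of 9 in compound cells were also lower than at day 0 in the same line. Both comparisons use the day 4 libraries of the line, and the share of all lower genes was not counted, so nothing is read from these counts.

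Across lines, 128 members were tested in all 4 lines and 8 of them, 6.25%, were lower at day 4 in all 4, beside 2.34% of the 13280 genes of all kinds. No test of that difference was made. They were LINC00326, LINC00641, LINC01503, LINC01588, LINC01963, LINC02331, LINC02458 and LINC02709. LINC01503 was at 2.88, 2.82 and 3.27 CPM in WT at day 0 and at 0.510, 0.542 and 0.601 at day 4, a log2 fold change of -2.42 (SE 0.27, adjusted p = 0.000362 by edgeR), and its log2 fold changes in the degron lines lay between -1.97 and -1.72. LINC01963 (chr2:216217045-216220192, plus strand), 10742 bases from XRCC5, the gene of the Ku80 DNA repair protein, was at 10.8, 12.3 and 4.84 CPM in WT at day 0 and 2.36, 2.71 and 1.98 at day 4, a log2 fold change of -1.99. The lowest of its day 0 values in WT was that of replicate 3. LINC00641, 2236 bases from the RNA-binding protein gene HNRNPC, fell with log2 fold changes of -2.24, -3.12, -2.11 and -3.02 in WT, UHRF1-AID, DNMT1-AID and compound cells, and its WT call was lost in 5 of 11 settings.

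LINC02356 was the single member higher at day 4 in all 4 lines. It was at 0.683, 0.717 and 1.35 CPM in WT at day 0 and at 4.02, 2.65 and 3.31 at day 4, without overlap, a log2 fold change of 1.87 (SE 0.33, adjusted p = 0.00295 by edgeR). In the degron lines it rose with log2 fold changes of 2.01, 1.93 and 1.53. LINC01338 and LINC01833 rose in WT with 1.65 and 1.25 and in DNMT1-AID cells with 1.61 and 1.53, and LINC01338 rose in the compound line with 1.34, where LINC01833 had 0.58 and did not pass. LINC01315, second in level per kilobase, fell in the 3 degron lines with log2 fold changes of -1.13, -1.74 and -1.42. In WT it had -0.86 with an adjusted p of 0.00598 by edgeR, under the fold threshold.

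LINC03061 (ENSG00000275216, chr13:109269634-109278512, plus strand) split the day 0 libraries. It was at 7.95 and 9.83 CPM in WT replicates 1 and 2 but 1.35 in replicate 3, and at 0.935 and 0.505 in DNMT1-AID replicates 1 and 2 but 9.54 in replicate 3. The low libraries were the 3 that stood apart by gene length. UHRF1-AID libraries had 9.25, 8.09 and 11.8 CPM and compound libraries 6.83, 8.68 and 8.0. At day 4 all 12 libraries were at 2.54 CPM or less, with 0.341, 0.423 and 0.371 in UHRF1-AID cells, where the log2 fold change against day 0 was -4.64 (SE 0.28, adjusted p = 6.42e-06 by edgeR). LINC00641 and LINC01963 also had their lowest day 0 values in these 3 libraries, at 4.5, 2.6 and 3.69 CPM and at 4.84, 5.41 and 6.32. Of the 163 members, 40 had their lowest day 0 library among these 3 of 12. Members with tied counts have no single lowest library, and all genes were not counted this way, so nothing is read from it. Against WT at day 4, LINC03061 was called lower in UHRF1-AID cells with -2.05 (adjusted p = 0.0163), and this call was lost without UHRF1-AID replicate 3, without WT replicate 3 and in a fit of all 24 libraries. These genes were set side by side after their values were seen.

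LINC02967 differed by replicate number. In UHRF1-AID cells it had 0, 47 and 37 counts at day 0 and 9, 139 and 87 at day 4, so replicate 1 was the lowest on both days. Other lines had 30 to 52 counts per library at day 0 and 67 to 107 at day 4, and its rise passed in WT, DNMT1-AID and compound cells with log2 fold changes of 1.07, 1.60 and 1.55, calls that were all 3 lost when the 24 libraries were fitted together. In UHRF1-AID cells the log2 fold change was 1.62 with a standard error of 1.05 and did not pass, in a fit without the replicate block. Each same-numbered library of that line had more counts at day 4 than at day 0, so the missing call does not show an absent rise.

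**Figure D1:**
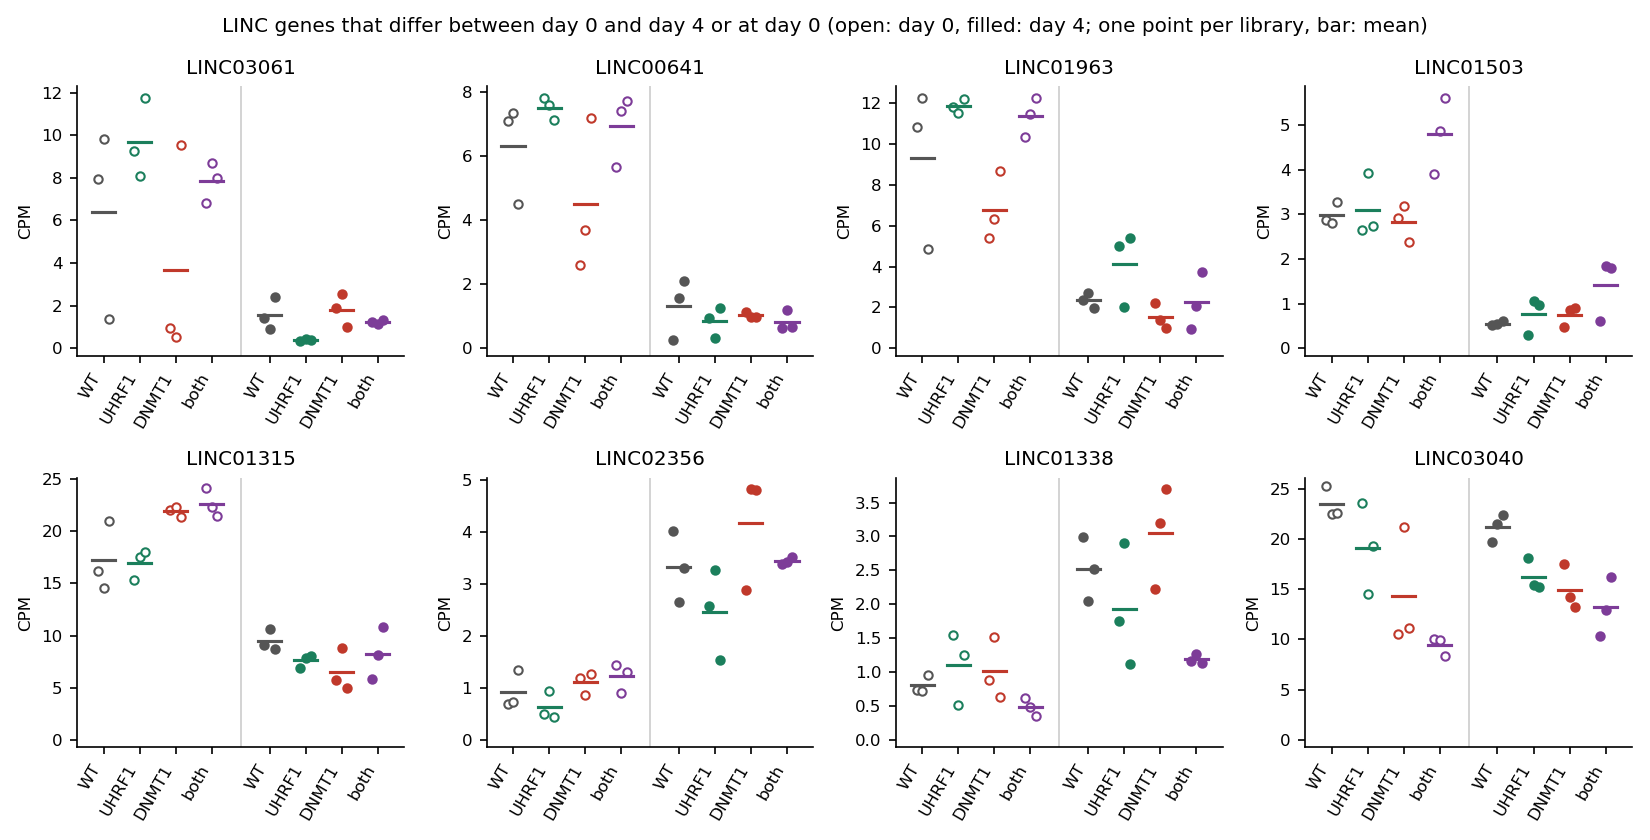
CPM of 8 LINC genes described for day 0 or for day 4 against day 0, 1 point per library and a bar at the mean of 3, open for day 0 and filled for day 4, with UHRF1, DNMT1 and both standing for the degron lines. LINC03061 has 3 low open points, at 0.505 to 1.35 CPM, beside 9 at 6.83 CPM or more, and LINC02356 is higher at day 4 in all 4 lines.

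The day effect in compound cells was set against that in WT cells in 1 fit of their 12 libraries, which takes away differences that both lines share, the folders included. Of 162 members tested, 11 were higher and 1 lower, beside 3.46% and 1.96% of all genes. The higher ones were LINC01145, LINC01980, LINC00680, LINC01615, LINC02972, LINC02882, LINC00540, LINC00239, LINC00649, LINC01426 and LINC01694, of which 9 were among the 25 members higher at day 4. Both comparisons use the day 4 libraries of compound and WT cells. The same overlap over all genes was not counted, so nothing is read from it. LINC01426 had a difference of 2.68 on the log2 scale (SE 0.50, adjusted p = 0.00253 by edgeR), since it had 0.569, 0.389 and 1.04 CPM in the compound line at day 0 and 7.18, 5.95 and 4.65 at day 4. LINC00239 had 0.788, 0.993 and 0.957 CPM at day 0 and 2.40, 3.86 and 3.10 at day 4 in the compound line, a difference of 1.90 (0.38, adjusted p = 0.00395). WT had 47, 38 and 47 counts of it at day 0 and 37, 38 and 26 at day 4. The compound line was below WT before auxin (-1.34 on the log2 scale, a call lost in 6 of 12 alternative settings). At day 4 LINC00239 was not called against WT. The call of LINC01694 (1.66) was lost in 10 of 18 alternative settings. LINC01270 was the lower one, with -1.64 (0.34, adjusted p = 0.00453). LINC00958 and LINC00200 were not called, with adjusted p of 0.30 and 1 by edgeR in a fit where WT was at 0 counts on 1 or both days.

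Of 10 LINC genes listed for their place in the cancer literature, 6 were members, namely LINC00460, LINC00511, LINC01234, LINC00467, LINC00662 and LINC01138. Against WT at day 4, 0 of these 6 were called in any line. Of all genes, 5.77%, 2.29% and 9.21% were higher in UHRF1-AID, DNMT1-AID and compound cells and 1.22%, 0.28% and 2.49% lower. Nothing is read from the count of 0. LINC00511, with the highest median at 36.2 CPM, had log2 fold changes of 0.37, 0.12 and 0.37. LINC00467 had -0.80 in UHRF1-AID cells (adjusted p = 0.0247 by edgeR), under the fold threshold. LINC00460 fell between the days in the 3 degron lines with log2 fold changes of -1.64, -1.74 and -1.18, and had -0.69 in WT. LINC00662 fell in WT, at 11.4, 13.7 and 15.5 CPM against 6.44, 4.21 and 5.17, with a log2 fold change of -1.35, and in DNMT1-AID cells with -1.40, a call that was lost in 3 of 12 alternative settings. LINC02901 fell in WT with -1.31 and in UHRF1-AID cells with -1.37, where the call was lost in 4 of 12.

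Beside the numbered LINC genes, 40 named long non-coding RNA genes were counted as a comparison list. Against WT at day 4, 3 of 32 tested were higher and 2 lower in UHRF1-AID cells, 0 of 32 and 1 in DNMT1-AID cells, and 5 of 33 and 1 in compound cells. Those higher in the compound line were H19, MEG3, NEAT1, MIR31HG and MIR22HG. H19 was at a mean of 3.06 CPM in the compound line at day 4, below its mean of 23.1 ± 31.8 (SD, n = 3) at day 0, where it varied widely between libraries. Between the 2 kinds of gene no test was made, and the medians of the named list were -0.36, 0.10 and 0.22 on the log2 scale.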

How the data were processed

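The authors prepared polyA RNA with a NEBNext Ultra kit and sequenced it from both ends. Trimmomatic, STAR (build hg38) and featureCounts turned the reads into gene counts, which were deposited without normalization as 1 file per library. The strand setting and the treatment of reads with several alignments are not given in the sources used here. Groups came from the sample labels. A symbol was matched for 58207 of the 58735 genes listed, and 92 ERCC sequences entered neither library sizes nor tests. Gene counts per library lay between 15824804 and 25073821, and intervals and floors cover counting error only.

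From the counts, each comparison was fitted with edgeR 4.0.16 in R 4.3.3 on the libraries of its groups alone, with filterByExpr, TMM scaling, robust quasi-likelihood tests and Benjamini-Hochberg adjustment over all genes tested. Calls required a log2 fold change beyond 1 in either direction with an adjusted p below 0.05. Where every library of a group had 0 counts, the fold was computed against 3 counts per library and is a lower bound, and for groups with few counts a ratio with an exact interval is given. Alternatives were RLE scaling, no filter, at least 10 counts in every library, DESeq2 1.42.0, a joint fit of the 24 libraries, a replicate block, no minimum fold, floors of 10 and 50 counts, members without exon overlap, and 78 fits that left out 1 library. Leaving out the 3 day 0 libraries with a length trend was chosen after seeing the data. Members, lists and tests were chosen with earlier results of these data known.

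Named members were those called the same way in all 3 lines at day 4, the 5 with the smallest p per direction in each of these comparisons and the 3 per direction in the others, the 5 highest per kilobase, the 3 on each side of the floor, and a list of 10 LINC genes. Other members were named after their values were seen. The edgeR fit was tested on simulated counts of UHRF1-AID against WT at day 4, where 96.0% of 200 changed genes among 13958 were called. Replicate numbers were checked by the correlation across genes of deviations of same-numbered libraries, which lay between -0.62 and 0.231 over 11 comparisons. Only in UHRF1-AID cells between the days were all 3 over 0.1 (0.227, 0.144 and 0.121), which was taken as pairing. Within groups, chi-square over degrees of freedom ran from 3.71 to 64.3 in the 24 pairs of replicates, above sampling noise. Promoter sequences are from RefSeq, GRCh38.p14. Figures were drawn with Python 3.11.15 and matplotlib 3.10.9.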

Additional observations from a re-analysis of the deposited data

Results flagged for a closer look

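UHRF1-AID and DNMT1-AID cells differed at day 4 by edgeR in 8 members, in a comparison across alignment folders. On the log2 scale of UHRF1-AID against DNMT1-AID cells the difference was 5.72 for LINC00200, with 2 counts in all in DNMT1-AID cells, 4.61 for LINC02972 and 2.46 for LINC00958. It was -2.28 for LINC03061, at 0.341, 0.423 and 0.371 CPM against 1.88, 2.54 and 0.974, and this call was lost without UHRF1-AID replicate 3, without DNMT1-AID replicate 2 and in a fit of all 24 libraries. For LINC01807 it was -1.03, at 1.66, 1.59 and 1.67 CPM against 3.11, 2.90 and 3.77, and this call was lost in 6 of 12 alternative settings.

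The day effect in compound cells differed from that in WT cells by edgeR in 12 members. The difference was 8.64 for LINC01980, where WT held at most 3 counts per library, 7.12 for LINC02972 and 2.68 for LINC01426, and -1.64 for LINC01270. The first 2 rest on groups of very low counts, so their size depends on the prior count of the fit. Causes of these differences were not tested.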

How the results depend on the processing

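Counts of members called higher at day 4 were 3, 2 and 6 in UHRF1-AID, DNMT1-AID and compound cells when at least 10 counts were required in every library, which by construction removes genes near 0 in WT. That filter also gave 13, 17, 20 and 25 calls between the days in WT, UHRF1-AID, DNMT1-AID and compound cells, in that order, 2 between the single lines and 7 for the difference of day effects. Without a filter, 8 members were lower in UHRF1-AID cells, 8 differed in the compound line at day 0 and 14 between the single lines. A floor of 50 counts gave 8 higher and 3 lower in UHRF1-AID cells, 12 higher in the compound line, 3 at day 0 there, and 30 and 35 between the days in UHRF1-AID and compound cells, and a floor of 10 gave 39 higher in the compound line. Members without exon overlap gave 3 lower in UHRF1-AID cells, 4 lower and, at day 0, 3 in the compound line, and 6 for the difference of day effects. DESeq2 gave 19 for that difference and 0 lower in DNMT1-AID cells. With the replicate block, DNMT1-AID cells had 0 lower and the compound line 2 at day 0. In the paired comparison, UHRF1-AID cells between the days, the block gave 58 calls against 53, and it moved no other count by more than 1.5 times.

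Leaving out 1 library at a time, counts ranged from 12 to 15 higher and 1 to 11 lower in UHRF1-AID cells, 3 to 7 higher and 0 to 1 lower in DNMT1-AID cells, and 23 to 27 higher and 5 to 9 lower in compound cells at day 4. The lower count in UHRF1-AID cells was 10, 11 and 1 without its replicates 1, 2 and 3 and 3 without any 1 of the WT replicates. Of all genes, 170 were lower there with every library. Without its replicates 1, 2 and 3 there were 218, 266 and 115, and without WT replicates 1, 2 and 3 there were 101, 115 and 125. DNMT1-AID cells had 4 higher without their replicate 3 and 3 without WT replicate 2, and 0 lower without their replicate 1 or 3 or WT replicate 1 or 2. The compound line had 5 lower without WT replicate 1, and 1 to 7 at day 0. Between the single lines the count ranged from 5 to 16, with 5 without DNMT1-AID replicate 2 or UHRF1-AID replicate 3 and 16 without UHRF1-AID replicate 2. Between the days counts ranged from 20 to 32 in WT, 49 to 59 in UHRF1-AID, 24 to 41 in DNMT1-AID and 61 to 65 in the compound line, and from 10 to 15 for the difference of day effects. At day 0 UHRF1-AID and DNMT1-AID cells kept 0 in each of these fits, and 9 in DNMT1-AID cells without the 3 libraries with a length trend. No named member reversed its direction. Causes of these shifts were not tested. For the other counts no value over all genes is set beside them, so nothing is read from their shifts about the members. Few counts per library limit members under 1 CPM.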
